A study of Mus musculus with 12 samples.

Results

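The genes described here are 43 mouse genes by which cells sense microbial products and tissue damage and pass that signal to the transcription factor NF-kB and to inflammasomes. They were taken from a list of gene symbols. It covered toll-like receptors, their adaptors and kinases, and C-type lectins and scavenger receptors. It also covered cytosolic receptors with their inflammasome partners, and the NF-kB subunits with their regulators. A listed gene was kept if it had at least 15 counts summed over all libraries. All 43 reached that minimum, among 54232 genes in the count files, and all 43 were among the 18618 genes tested.

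The series measured mRNA by sequencing in skin wounds of diabetic mice. Every mouse was a male C57BLKS/J animal with the Lepr (db/db) genotype, a leptin receptor mutation that causes obesity and diabetes and that the control animals carried too. A 6 mm full-thickness punch wound was made in back skin at 12 weeks of age, and the labels give 12.5 weeks as the age. The wounds were collected on day 10. In the TD group the wound was covered with Tegaderm, a transparent adhesive film dressing, alone (5 libraries). In the Strain group a patch that imposes a stretch of about 30% was applied directly after injury (4 libraries), and in the No Strain group a patch that imposes none (3 libraries). Nothing in the labels says whether different libraries came from different mice, so p-values here measure the spread between these libraries. There was no unwounded skin among the libraries.

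Library totals ran from 20354677 to 25059371 counts, and 3 counts in a library, the limit that a count of 0 allows, corresponded to 0.117 to 0.149 CPM (counts scaled to the library total, the unit of level used throughout). Markers of the labelled tissue were present in every group. Over 10 keratinocyte markers the summed level was between 9596 and 25500 CPM in the 12 libraries, and over 7 fibroblast markers between 42118 and 73279 CPM. The 12 libraries are called TD 1 to TD 5, Strain 1 to Strain 4 and No Strain 1 to No Strain 3, and the numbers pair nothing across groups.

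Toll-like receptors recognise microbial lipids, proteins and nucleic acids at the cell surface or in endosomes, and most of them signal through the adaptor MyD88, IRAK kinases and the ubiquitin ligase TRAF6 to NF-kB. C-type lectins of the Dectin family recognise fungal and mycobacterial glycans and, in the case of Mincle, products of dying cells, and signal through the kinase SYK to the same factor. NF-kB induces its own inhibitors, among them IkB-alpha and A20, and it also induces the sensor NLRP3, which assembles with ASC and caspase-1 to release mature IL-1 beta. In healing skin these genes are known above all from neutrophils, macrophages and keratinocytes.

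In wounds under either patch, many of these genes had higher mRNA levels than in wounds under film alone. In the test of Strain against TD, 16 of the 43 rose (37.2%) and 0 fell, at an adjusted p under 0.05 in edgeR's quasi-likelihood test. Among all genes tested, 6.20% were higher and 6.41% lower by the same rule. In the test of No Strain against TD, 23 of the 43 rose (53.5%) and 0 fell, against 9.35% higher and 8.40% lower among all genes. No member was lower at an unadjusted p under 0.05 in either comparison, and DESeq2 also gave 0 lower members, with 22 and 24 higher. DESeq2 called more of all 18618 genes as well: 3518 and 4372 in either direction, where edgeR called 2349 and 3305. The median log2 fold change of the 43 genes was 0.55 for Strain and 0.62 for No Strain, where the medians over all genes tested were 0.02 and 0.0045. Both comparisons use the same 5 TD libraries, so their results are not independent of each other. The members were chosen with earlier results of these data known. Their shares beside those of all genes are therefore a description, not an independent test of the list.

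The count for Strain depended on single libraries. Without Strain 2 it was 6, without TD 3 it was 8 and without TD 4 it was 9. Calls among all genes fell as well, from 2349 to 882, 1301 and 1274 in that order. The count for No Strain was 14 without No Strain 3, where calls among all genes fell from 3305 to 1505. These drops were thus not particular to the members. By library, Strain 2 held the highest level of the 12 for 20 of the 43 genes and No Strain 3 for 10, and TD 1 held the lowest for 23. In all, the highest level lay in a patch library for 40 of the 43 genes and the lowest in a TD library for 39. Patch libraries are 7 of the 12. Such extremes were not counted over all genes tested, so whether these counts are particular to the members is not known.

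**Figure D1:**
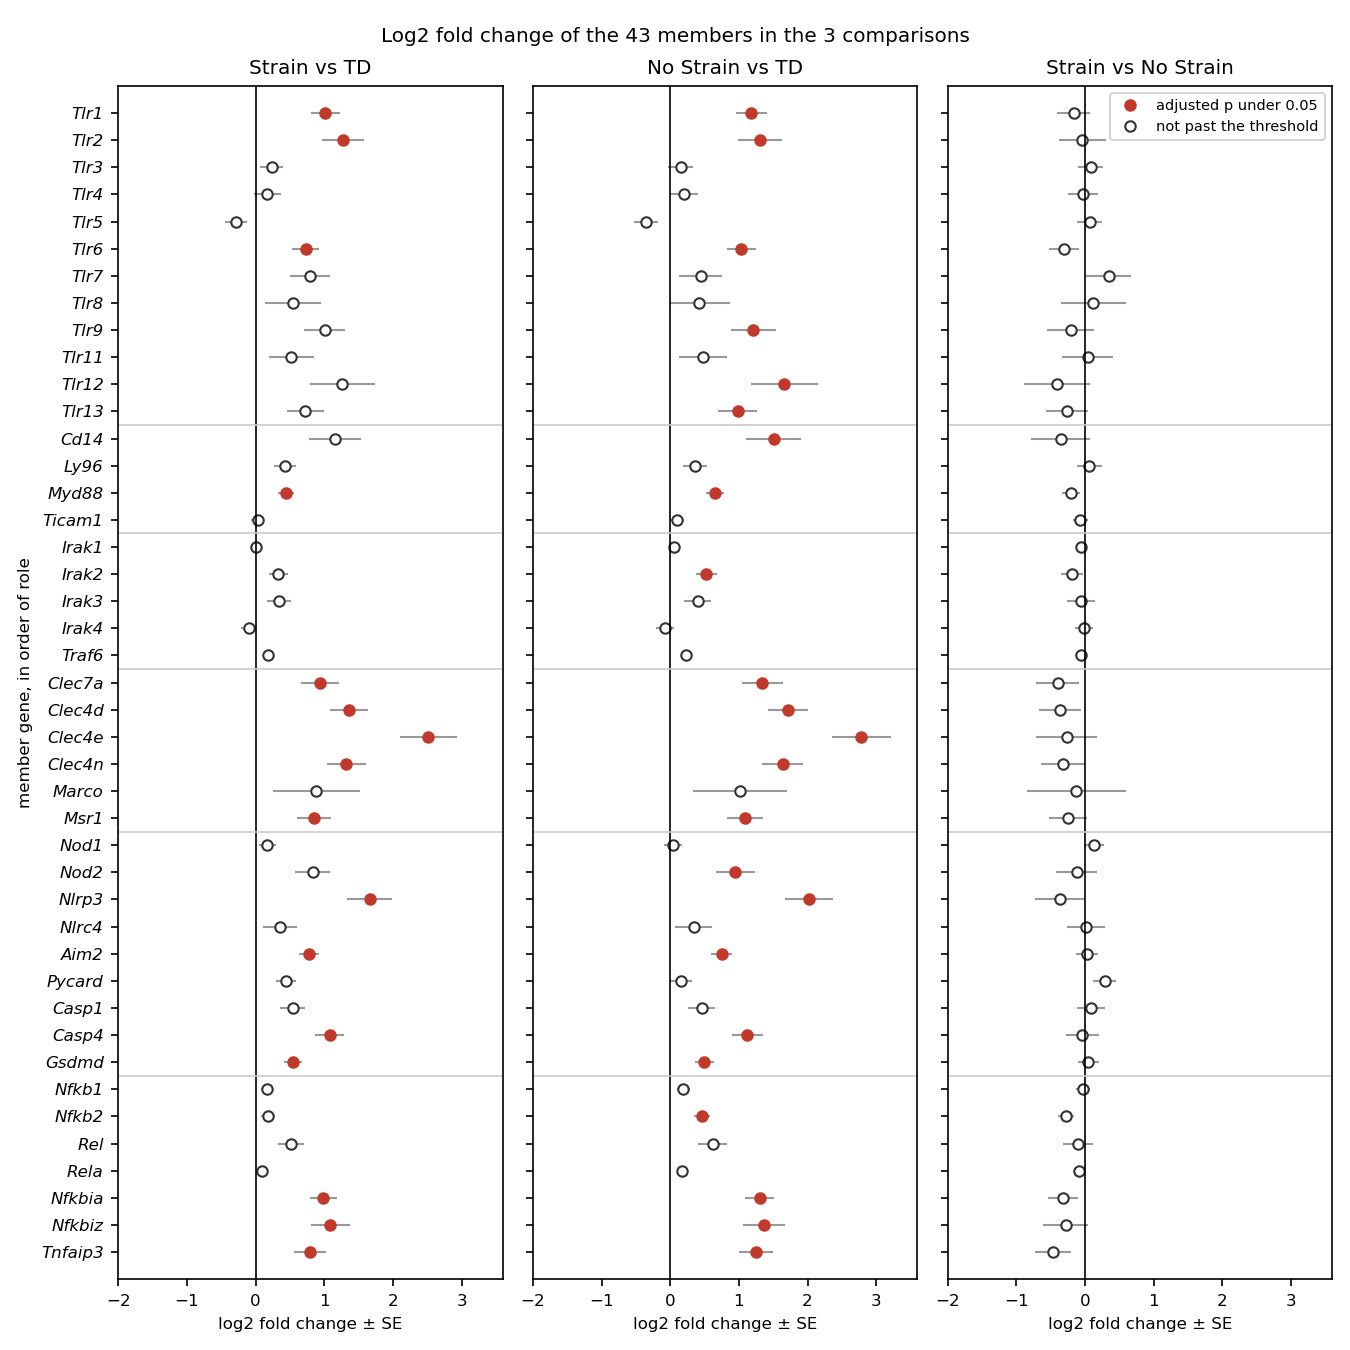
Log2 fold change (horizontal axis, bars are 1 standard error) of each of the 43 genes, ordered by role, in the 3 comparisons, with filled points for an adjusted p under 0.05 in edgeR's quasi-likelihood test. There are 16 filled points in the left panel, 23 in the middle and 0 in the right, and Clec4e lies farthest to the right in both comparisons with TD.

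The patch groups did not differ from each other in any of these genes by the test. In Strain against No Strain, 0 of 43 passed edgeR's test, and 0 passed DESeq2's. Of all 18618 genes tested, edgeR called 0 and DESeq2 called 28. The median log2 fold change of the 43 was -0.08, and 1 gene, Nfkb2, was under 0.05 before adjustment. Of the 43, 31 had a negative log2 fold change and 12 a positive one, where 8904 and 9714 of all genes tested did. The libraries of the patch groups overlapped for all 43 genes, where 5.62% of all genes tested had groups that did not overlap, in either direction. With 4 and 3 libraries, the standard error of the log2 fold change was 0.446 for Clec4e and 0.363 for Nlrp3, so a difference of that size could not be resolved.

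The same picture without a model is the count of genes whose lowest patch library lay above the highest TD library. There were 13 such genes for Strain (30.2%), where 7.47% of all genes tested had the same separation. For No Strain there were 25 (58.1%), where 14.3% of all genes did.

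Levels of neutrophil, macrophage and muscle markers are given beside these results. The summed level of 12 neutrophil markers, of which 11 were tested, ran from 399 to 1601 CPM in TD, from 775 to 8545 in Strain and from 1869 to 5054 in No Strain. Of the 11, 8 rose in Strain and 6 in No Strain by edgeR's test. None of the 12 was at 0 in every library. S100a8 and S100a9, which activated keratinocytes also express, made up 80.1 to 98.3% of the sum in each library. Without these, a split made after seeing the values, the sum ran from 78.4 to 101 CPM in TD, from 149 to 209.5 in Strain and from 161 to 436 in No Strain. Between the patch groups 0 of the 11 markers passed edgeR's test, and 4 had an unadjusted p under 0.05, all lower in Strain. The summed level of 12 macrophage markers ran from 2629 to 5698 CPM in TD, from 4915 to 7760 in Strain and from 5061 to 7964 in No Strain, with 1 of 12 past the test in each comparison, the Fc receptor gene Fcgr1. Of the 12, 10 had a positive log2 fold change in each comparison, with list medians of 0.32 for Strain and 0.48 for No Strain. In edgeR's test 2 and 8 had an unadjusted p under 0.05, of which 0 and 1 were lower. The 2 negative markers were Mrc1, at -0.30 and -0.28, and Cd163, at -0.85 and -1.67, in Strain and No Strain. Markers of skeletal muscle ran the other way, from 6270 to 14782 CPM in TD, 2746 to 5173 in Strain and 3750 to 8520 in No Strain, and 8 and 4 of 10 fell. In whole tissue, more cells of a type and more RNA per cell cannot be told apart, and the part of these cells in the results was not tested. With the neutrophil list's mean log2 level as a covariate, 0 of the 43 members and 0 of all 18618 genes passed edgeR's test in either comparison with TD, and 12 and 13 members had an unadjusted p under 0.05.

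**Figure D2:**
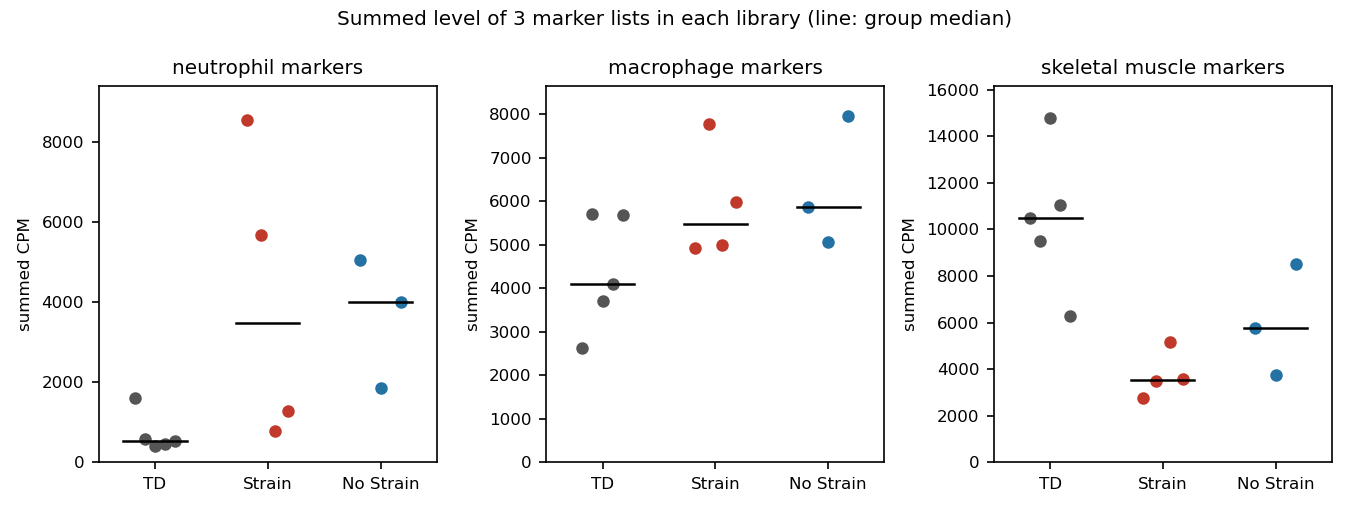
Summed CPM of the neutrophil, macrophage and skeletal muscle marker lists in each library, by group, 1 point a library with a line at the group median. Neutrophil sums reach 1601 CPM at most in TD and 8545 CPM in Strain, mostly S100a8 and S100a9, and muscle sums are highest in TD.

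The library titles also carry a letter, L or R, whose meaning the labels do not give. TD 1 is the only TD library with L, while 3 Strain and 2 No Strain libraries have it. Within L the median log2 ratio of the 43 genes to TD was 0.90 for Strain and 0.88 for No Strain, and within R it was 0.41 and 0.49. With the letter as a covariate, 5 members passed the test in Strain against TD and 18 in No Strain against TD. Of all genes 798 and 2145 passed with it, against 2349 and 3305 without it. The title numbers of the TD libraries all lie below those of the patch libraries, so that order and treatment cannot be told apart.

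Promoter sequences are shown first for 5 of the genes that rose in No Strain against TD, because each holds the NF-kB consensus within 250 bases before an annotated start, and Nfkbia, Tnfaip3 and Nlrp3 are textbook NF-kB targets. They are RefSeq sequences of build GRCm38.p6, read 5′ to 3′ on the gene's strand and trimmed to bases outside annotated exons, with the consensus on either strand in capitals. The regions are chr12:55492648-55492847 (minus strand) for Nfkbia, chr10:19015411-19015547 (minus strand) for Tnfaip3, chr3:83841768-83841858 (minus strand) for Tlr2, chr11:59541368-59541567 (plus strand) for Nlrp3 and chr9:5308628-5308827 (plus strand) for Casp4.
Nfkbia: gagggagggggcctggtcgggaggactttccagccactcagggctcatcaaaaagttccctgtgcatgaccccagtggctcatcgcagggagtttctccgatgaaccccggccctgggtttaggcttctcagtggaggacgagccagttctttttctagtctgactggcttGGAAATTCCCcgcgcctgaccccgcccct
Tnfaip3: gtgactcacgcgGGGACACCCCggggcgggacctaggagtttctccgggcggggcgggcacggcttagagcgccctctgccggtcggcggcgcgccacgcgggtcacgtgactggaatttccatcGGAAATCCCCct
Tlr2: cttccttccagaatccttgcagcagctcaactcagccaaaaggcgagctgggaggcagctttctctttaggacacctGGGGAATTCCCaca
Nlrp3: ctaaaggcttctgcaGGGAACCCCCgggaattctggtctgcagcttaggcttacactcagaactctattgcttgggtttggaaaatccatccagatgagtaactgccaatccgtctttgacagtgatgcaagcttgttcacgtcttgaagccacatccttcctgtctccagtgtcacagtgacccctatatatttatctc
Casp4: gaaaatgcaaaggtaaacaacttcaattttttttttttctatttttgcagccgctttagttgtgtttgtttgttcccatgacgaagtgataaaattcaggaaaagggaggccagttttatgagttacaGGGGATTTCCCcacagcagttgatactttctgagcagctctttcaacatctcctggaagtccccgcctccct

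Nlrp3 and Tnfaip3 each have a further annotated start in RefSeq, whose window holds no match to the consensus. A match to these letters is a description of the sequence, not a measured binding site. RefSeq windows were at hand for 34 of the 43 genes. Of the 18 with a window that rose in No Strain against TD, 6 held the NF-kB consensus before at least 1 start (33.3%): the 5 above and Nfkb2. Of the other 16, 2 did (12.5%), Rel and Tlr3. Over 26994 RefSeq genes the share was 4.45%, and over single windows it was 3.90% of 32817. Known NF-kB targets were among the genes the list was made of, so these shares are not independent of its choice. The AP-1 motif TGANTCA was in 3 of the 18 (16.7%), 0 of the 16 and 7.82% of RefSeq genes. The C/EBP motif TTGCNNAA was in 2 (11.1%), 4 (25%) and 10.9%, and the PU.1 motif GAGGAAGT was in 2 (11.1%), 3 (18.8%) and 2.79%. Shares above that of all RefSeq genes were thus not limited to the NF-kB consensus. The Tnfaip3 stretch also holds the AP-1 motif. All motifs were searched on both strands, and the NF-kB consensus shared bases with no other motif searched in the stretches shown.

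Among the 12 toll-like receptors, 3 rose in Strain and 6 in No Strain, with median log2 fold changes of 0.73 in both. The 3 were Tlr1, Tlr2 and Tlr6, which are the receptors for bacterial lipoproteins: TLR2 pairs with TLR1 or with TLR6. The level of Tlr1 was 7.36, 16.02, 12.9, 13.5 and 16.8 CPM in TD, 23.6, 32.5, 29.1 and 22.5 in Strain and 32.0, 24.2 and 34.2 in No Strain. Every patch library lay above every TD library, and TD 1 was the lowest of all. The log2 fold change was 1.02 (SE 0.213, adjusted p = 0.0149) for Strain and 1.18 (SE 0.228, adjusted p = 0.00748) for No Strain. Tlr2 stood at 22.1, 34.3, 26.8, 34.1 and 31.1 CPM in TD, at 45.2, 129, 48.9 and 63.0 in Strain and at 49.8, 76.8 and 94.2 in No Strain. Again no patch library overlapped TD, and Strain 2 was the highest by a wide margin. Its log2 fold change was 1.27 (SE 0.303, adjusted p = 0.0233) for Strain and 1.31 (SE 0.323, adjusted p = 0.0197) for No Strain. Tlr6, a neighbour of Tlr1 on chromosome 5 and close to it in sequence, stood at 6.13, 9.41, 7.57, 7.67 and 7.76 CPM in TD, at 9.74, 16.3, 11.7 and 13.4 in Strain and at 11.2, 15.1 and 21.1 in No Strain. The groups were separate here too, Strain 1 only narrowly above TD 2. The log2 fold change was 0.73 (SE 0.197, adjusted p = 0.034) and 1.03 (SE 0.21, adjusted p = 0.00895) in the same order. Reads that fit both Tlr1 and Tlr6 may have been split or dropped by the authors' counting.

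Receptors of endosomes made up the rest of those that passed. Tlr9, the receptor for unmethylated CpG DNA, was 5.58 ± 1.96 CPM in TD (SD, n = 5), 11.2 ± 3.84 in Strain (SD, n = 4) and 12.9 ± 2.22 in No Strain (SD, n = 3), with adjusted p = 0.0523 for Strain and 0.0272 for No Strain by edgeR's test. Tlr13, which recognises bacterial ribosomal RNA in mice, was 57.3 ± 18.6, 94.7 ± 19.3 and 114 ± 27.2 CPM, with adjusted p = 0.0947 and 0.0357. Tlr12, a profilin receptor, was 0.319 ± 0.129, 0.767 ± 0.42 and 1.03 ± 0.587 CPM, near the level of a few counts, with adjusted p = 0.101 and 0.0384. For these genes the test of Strain against No Strain gave log2 fold changes of -0.21, -0.26 and -0.40, none past the threshold, so a call in 1 patch group alone does not show that the groups differ.

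The other 6 toll-like receptors did not pass in either comparison. Tlr4, the lipopolysaccharide receptor, was 29.4 ± 6.08 CPM in TD, 33.1 ± 7.83 in Strain and 33.8 ± 7.41 in No Strain, with log2 fold changes of 0.17 (SE 0.192) and 0.20 (SE 0.208). Tlr3, which binds double-stranded RNA, had log2 fold changes of 0.23 and 0.15. Tlr7 and Tlr8, neighbouring genes of the X chromosome for single-stranded RNA sensing, had 0.79 and 0.45 and 0.54 and 0.42. Tlr11, the other profilin receptor, had 0.52 and 0.48 at levels between 0.904 and 2.70 CPM. The flagellin receptor Tlr5 had the most negative values of all members, -0.28 (SE 0.158, adjusted p = 0.255) and -0.35 (SE 0.173, adjusted p = 0.18).

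**Figure D3:**
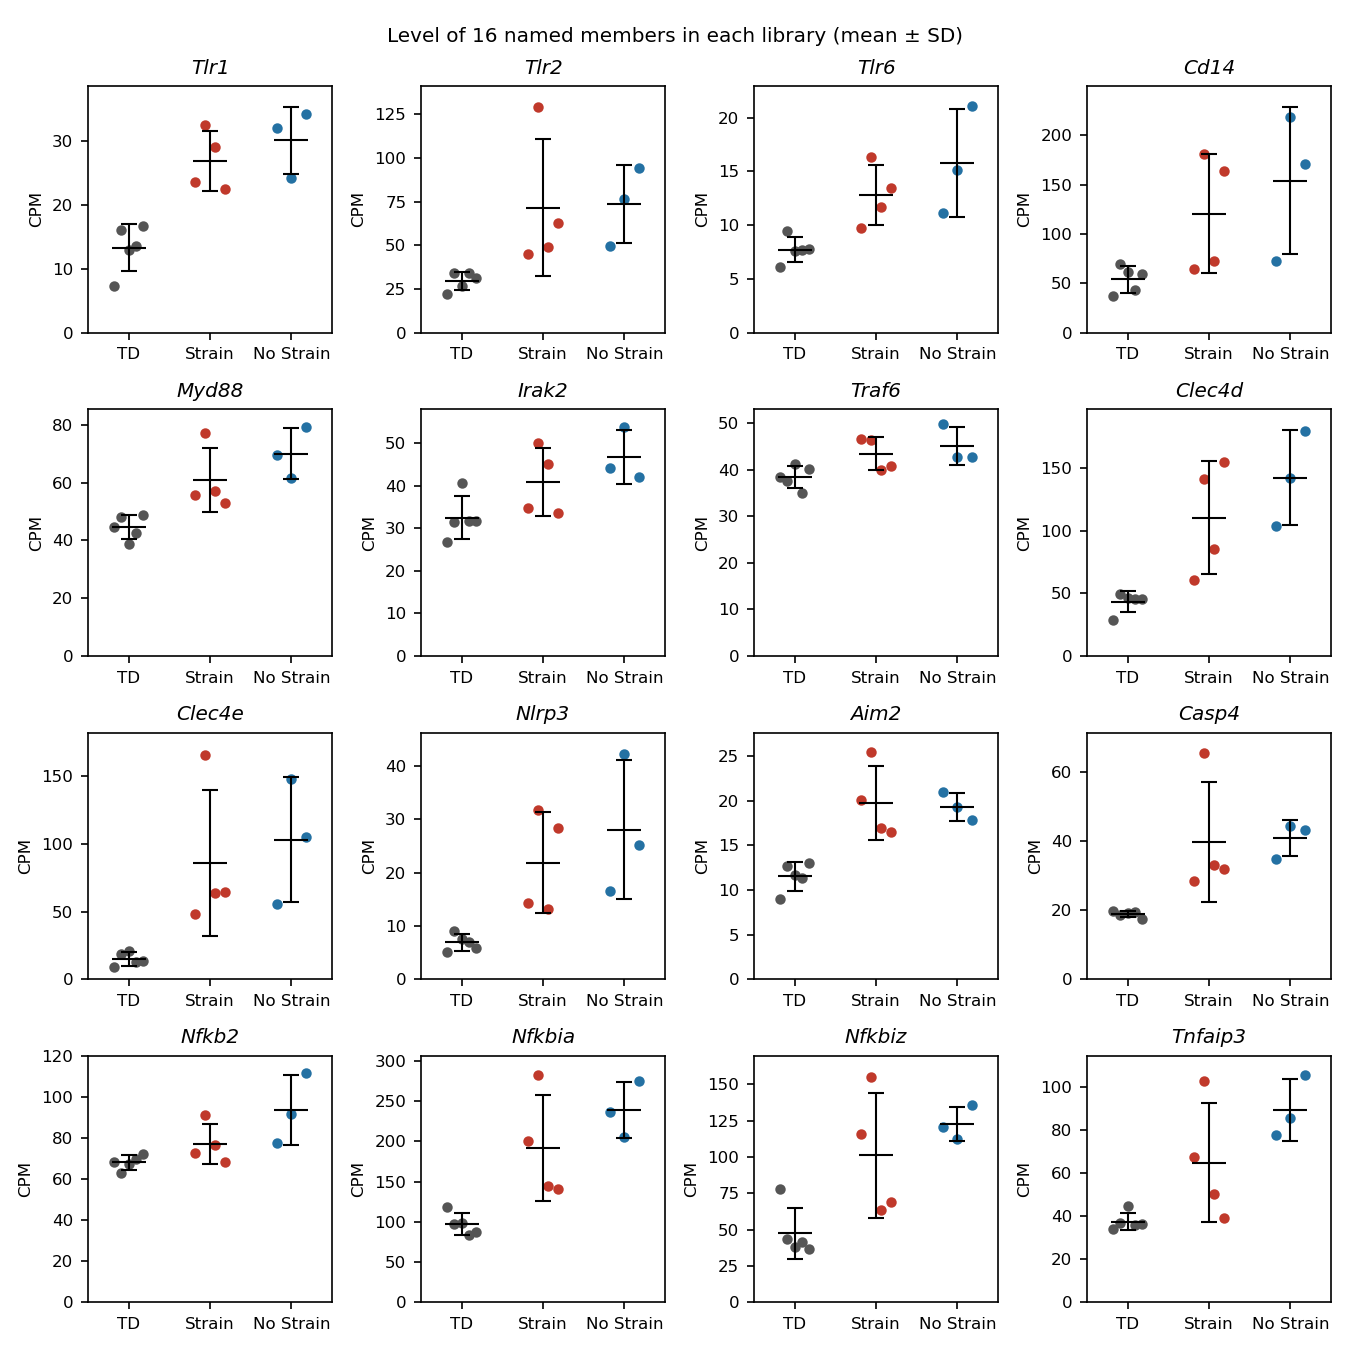
CPM of 16 genes in each library, 1 point a library, by group, with the group mean and SD as bars. For Tlr1, Tlr2, Tlr6, Myd88, Clec4d, Clec4e, Nlrp3, Aim2, Casp4 and Nfkbia every Strain and No Strain point lies above every TD point.

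Of the 4 co-receptors and adaptors, 1 rose in Strain and 2 in No Strain, with median log2 fold changes of 0.44 and 0.51. Myd88, the adaptor of most toll-like receptors and of the IL-1 receptor, was 44.8, 48.2, 38.6, 42.4 and 48.8 CPM in TD, 55.8, 77.2, 57.1 and 52.9 in Strain and 69.4, 61.4 and 79.3 in No Strain. The groups did not overlap, and the shift was smaller than that of Tlr1, Tlr2 and Tlr6. It was 0.45 (SE 0.119, adjusted p = 0.0325) and 0.65 (SE 0.128, adjusted p = 0.00765) on the log2 scale by edgeR's test. Cd14, which hands lipopolysaccharide to TLR4, was 37.3, 70.0, 61.1, 42.9 and 59.3 CPM in TD, 64.8, 181, 72.3 and 164 in Strain and 72.5, 219 and 171 in No Strain. Strain 1 lay below TD 2, so Strain and TD overlapped, while No Strain stayed above TD. Within each patch group some libraries were near TD and others well above it. The log2 fold change was 1.15 (SE 0.375, adjusted p = 0.065) for Strain and 1.51 (SE 0.4, adjusted p = 0.0261) for No Strain. Ly96, which encodes the TLR4 partner MD-2, had 0.43 and 0.36, and Ticam1, which encodes the adaptor TRIF of TLR3 and TLR4, had 0.03 (SE 0.0962) and 0.09 (SE 0.104), neither past the threshold.

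Downstream of these adaptors, 0 of the 5 kinases and ligase genes passed edgeR's test in Strain and 1 in No Strain, and the medians were 0.18 and 0.23. Irak2, a kinase-like protein that sustains the signal, was 26.7, 31.5, 40.6, 31.7 and 31.7 CPM in TD, 34.7, 50.1, 45.0 and 33.5 in Strain and 44.1, 53.8 and 42.0 in No Strain. TD 3 reached into the range of Strain but stayed under all No Strain libraries. The log2 fold change was 0.33 (SE 0.145, adjusted p = 0.15) and 0.52 (SE 0.156, adjusted p = 0.0395). Traf6, the ubiquitin ligase on which the signal converges, was 38.3, 37.5, 41.1, 35.0 and 40.03 CPM in TD, 46.7, 46.3, 39.9 and 40.8 in Strain and 49.7, 42.7 and 42.7 in No Strain. Strain overlapped TD and No Strain lay just above it. Its log2 fold changes were 0.18 (SE 0.074, adjusted p = 0.135) and 0.23 (SE 0.0802, adjusted p = 0.0669). Irak1 was 102 ± 5.02, 103 ± 5.13 and 107 ± 10.5 CPM in TD, Strain and No Strain (SD, n = 5, 4 and 3), with log2 fold changes of 0.00 and 0.06. Irak4, the kinase that starts the cascade, had -0.09 and -0.08, and Irak3, an inhibitory family member, had 0.34 and 0.40. At an unadjusted p under 0.05 the Strain comparison had Irak2 and Traf6.

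The C-type lectins and scavenger receptors held the largest fold changes, with 5 of 6 past the test in both comparisons and medians of 1.13 and 1.49. Clec4e encodes Mincle, a receptor for mycobacterial cord factor and for a nuclear protein released from dying cells. It was 8.68, 18.8, 21.2, 12.7 and 13.4 CPM in TD, 48.5, 166, 63.8 and 64.6 in Strain and 55.8, 148 and 105 in No Strain. The lowest patch library was above the highest TD library by a wide gap, and Strain 2 was far above the other Strain libraries. The log2 fold change was 2.52 (SE 0.41, adjusted p = 0.00715) for Strain, a 5.73-fold difference, and 2.78 (SE 0.431, adjusted p = 0.00348) for No Strain, a 6.89-fold difference. Clec4d, whose product MCL pairs with Mincle, was 28.6, 49.5, 46.6, 45.5 and 45.9 CPM in TD, 60.4, 142, 85.3 and 155 in Strain and 104, 143 and 180 in No Strain. All patch libraries were above all TD libraries, with TD 1 well below the rest of its group. On the log2 scale the change was 1.36 (SE 0.273, adjusted p = 0.0132) and 1.72 (SE 0.291, adjusted p = 0.00448).

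These 2 genes and Clec4n lie side by side on chromosome 6, at chr6:123229843-123247021 for Clec4n, chr6:123262111-123275265 for Clec4d and chr6:123281789-123289870 for Clec4e (GRCm38). Clec4n encodes Dectin-2, a receptor for fungal mannans, and was 31.6 ± 7.97 CPM in TD (SD, n = 5), 78.9 ± 24.6 in Strain (SD, n = 4) and 98.4 ± 36.3 in No Strain (SD, n = 3). Clec7a encodes Dectin-1, the beta-glucan receptor, and was 34.9 ± 12.1, 67.1 ± 20.01 and 88.3 ± 17.9 CPM. Msr1, scavenger receptor A, was 52.6 ± 14.9, 94.5 ± 28.7 and 112 ± 18.4 CPM. All 3 rose in both comparisons, and their log2 fold changes were 1.32 and 1.64 for Clec4n, 0.94 and 1.34 for Clec7a and 0.85 and 1.09 for Msr1. For Strain the adjusted p in edgeR's test was 0.016 for Clec4n, 0.0464 for Clec7a and 0.0465 for Msr1. When each library was left out in turn, Clec4n passed in 11 of 12 fits for Strain, and Clec7a and Msr1 in 1 of 12 each (without TD 5 and without Strain 1). Marco, the other scavenger receptor, did not pass: it ranged from 2.07 to 7.48 CPM in TD, from 2.49 to 22.9 in Strain and from 3.13 to 16.2 in No Strain, the widest relative spread within groups of these 6 genes.

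Of 9 cytosolic receptors and inflammasome components, 4 rose in Strain and 5 in No Strain, with medians of 0.55 and 0.50. Nlrp3, the sensor of the best studied inflammasome, was 5.06, 9.08, 7.61, 6.99 and 5.87 CPM in TD, 14.3, 31.7, 13.2 and 28.3 in Strain and 16.6, 42.3 and 25.3 in No Strain. No patch library came down to the TD range. By edgeR's test the log2 fold change was 1.66 (SE 0.328, adjusted p = 0.0123) and 2.02 (SE 0.348, adjusted p = 0.00485). Aim2, which detects cytosolic DNA, was 8.97, 12.7, 11.6, 11.3 and 13.0 CPM in TD, 20.1, 25.5, 17.0 and 16.5 in Strain and 20.97, 19.3 and 17.8 in No Strain. The groups were separate and the patch libraries close together. Its log2 fold change was 0.78 (SE 0.142, adjusted p = 0.00921) and 0.75 (SE 0.153, adjusted p = 0.00917). Casp4 encodes mouse caspase-11, the cytosolic lipopolysaccharide sensor that cleaves gasdermin D. It was 19.7, 18.6, 19.1, 19.4 and 17.4 CPM in TD, 28.4, 65.6, 33.1 and 32.0 in Strain and 34.9, 44.5 and 43.3 in No Strain. The TD libraries were nearly alike, all patch libraries lay above them and Strain 2 stood apart. Its log2 fold change was 1.08 (SE 0.212, adjusted p = 0.0122) and 1.12 (SE 0.226, adjusted p = 0.00912).

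The pore-forming gasdermin D gene, Gsdmd, rose by less, from 46.4 ± 6.50 CPM in TD (SD, n = 5) to 67.9 ± 14.1 in Strain (SD, n = 4) and 65.6 ± 0.682 in No Strain (SD, n = 3), with edgeR adjusted p = 0.0248 and 0.0359. Nod2, a muramyl dipeptide sensor, was 12.4 ± 1.38, 22.0 ± 10.5 and 24.0 ± 5.95 CPM and passed in No Strain (adjusted p = 0.0379) and not in Strain (0.0584). The shared parts of the inflammasome did not pass. Casp1, the protease that matures IL-1 beta, was 35.5 ± 4.72, 51.5 ± 15.6 and 48.6 ± 6.68 CPM, with adjusted p = 0.0689 and 0.124. Pycard, which encodes the adaptor ASC, had log2 fold changes of 0.44 (SE 0.147) and 0.15 (SE 0.16). Nod1 had 0.17 and 0.04, and Nlrc4, which partners with the NAIP sensors of flagellin, had 0.36 and 0.34.

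Among the 7 NF-kB genes, Nfkbia, Nfkbiz and Tnfaip3 rose in both comparisons, and most subunits did not pass. In all, 3 rose in Strain and 4 in No Strain, with medians of 0.51 and 0.62. Nfkbia encodes IkB-alpha, which holds NF-kB in the cytoplasm and is rapidly resynthesised once NF-kB is active. It was 119, 96.7, 98.5, 83.3 and 87.4 CPM in TD, 200.5, 282, 144 and 141 in Strain and 236, 205 and 275 in No Strain. All 7 patch libraries were above the 5 TD libraries. As a log2 fold change this was 0.98 (SE 0.196, adjusted p = 0.0126) and 1.30 (SE 0.209, adjusted p = 0.0039). Nfkbiz encodes IkB-zeta, a nuclear cofactor for secondary response genes. It was 78.2, 43.5, 37.8, 41.4 and 36.7 CPM in TD, 116, 155, 63.9 and 69.3 in Strain and 120, 113 and 136 in No Strain. TD 1, the lowest library for most of the 43 genes, was the highest TD library here and overlapped Strain. Relative to TD the log2 fold change was 1.09 (SE 0.287, adjusted p = 0.0323) and 1.37 (SE 0.306, adjusted p = 0.0133).

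Tnfaip3 encodes A20, a ubiquitin-editing enzyme that shuts off signalling to NF-kB. It was 33.9, 37.0, 44.5, 35.7 and 36.3 CPM in TD, 67.2, 103, 50.5 and 38.9 in Strain and 77.4, 85.3 and 105 in No Strain. Strain 4 was within the TD range, and the No Strain libraries were all above it. In edgeR's fit the log2 fold change was 0.79 (SE 0.229, adjusted p = 0.0443) and 1.25 (SE 0.244, adjusted p = 0.00777) by edgeR's test. Nfkb2, which encodes the p100 precursor of the noncanonical pathway, was 68.1, 62.9, 67.4, 69.7 and 72.3 CPM in TD, 72.5, 91.1, 76.7 and 68.4 in Strain and 77.5, 91.5 and 112 in No Strain. No Strain lay above TD, and Strain overlapped both. On the log2 scale the change was 0.18 (SE 0.106, adjusted p = 0.281) for Strain and 0.46 (SE 0.115, adjusted p = 0.0201) for No Strain. Between the patch groups it was -0.28 (SE 0.121, unadjusted p = 0.0403, adjusted p = 0.872). The remaining subunits were not past the threshold. Nfkb1 was 130 ± 3.37, 145 ± 21.3 and 148 ± 10.2 CPM in TD, Strain and No Strain (SD, n = 5, 4 and 3), and Rela was 77.5 ± 5.89, 82.6 ± 5.52 and 87.6 ± 4.89. Rel, the subunit of lymphoid and myeloid cells, had log2 fold changes of 0.51 (SE 0.19, adjusted p = 0.098) and 0.62 (SE 0.205, adjusted p = 0.0583).

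**Figure D4:**
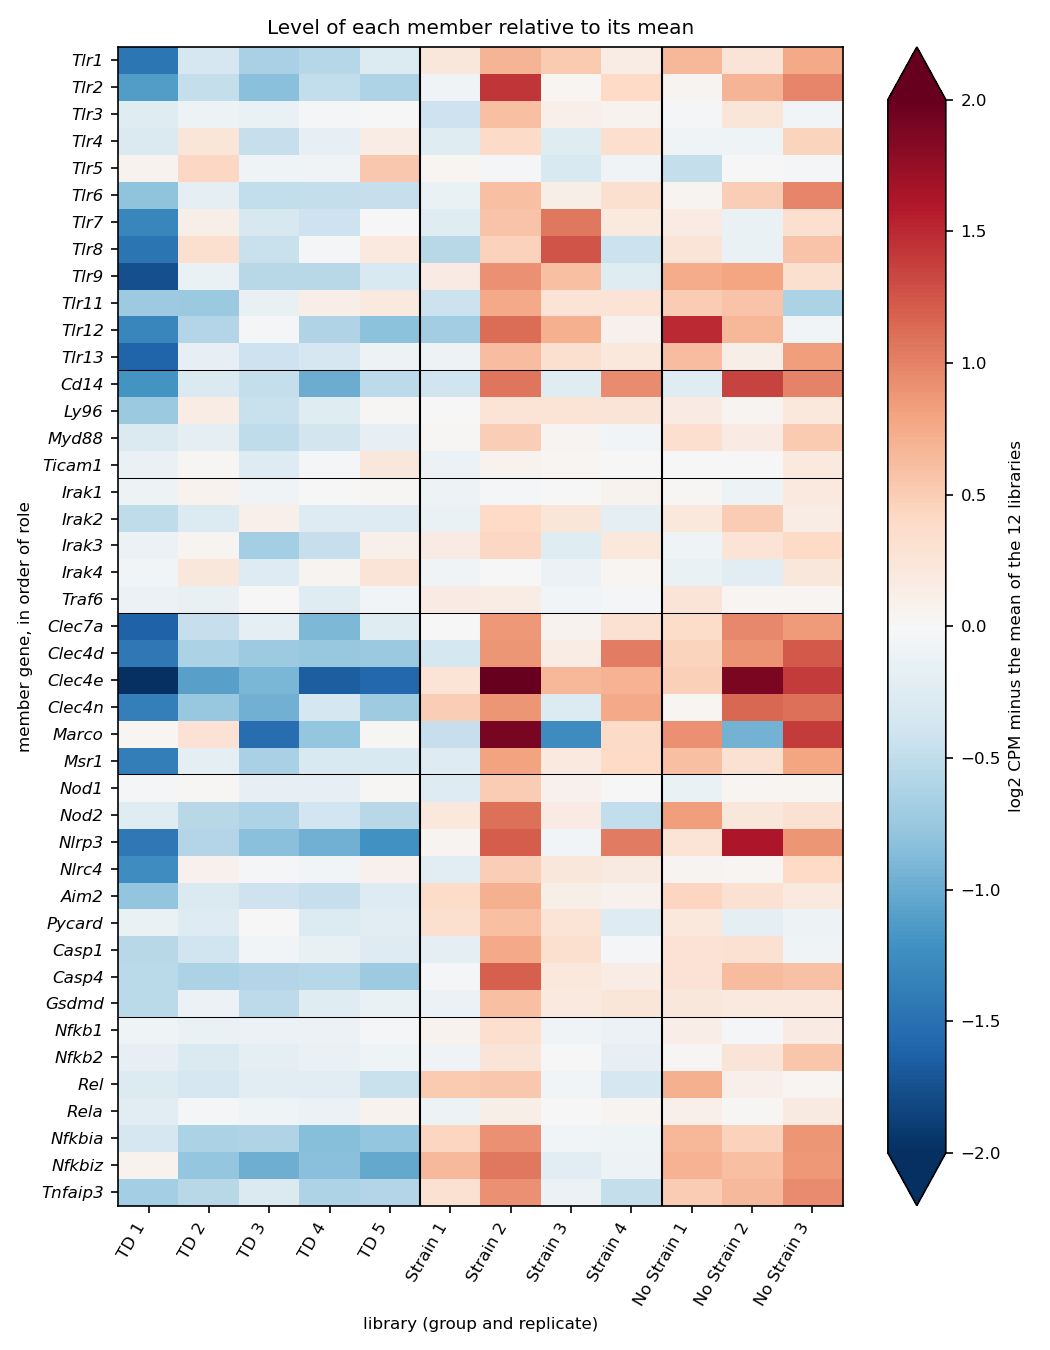
Log2 CPM of the 43 genes (rows, in order of role) in the 12 libraries (columns, by group), each row centred on its mean over the libraries. TD columns are mostly below the row mean, TD 1 most of all, and Strain 2 and No Strain 3 hold the highest values of 20 and 10 rows.

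Gathered by comparison, 16 genes passed in both: Tlr1, Tlr2, Tlr6, Myd88, Clec7a, Clec4d, Clec4e, Clec4n, Msr1, Nlrp3, Aim2, Casp4, Gsdmd, Nfkbia, Nfkbiz and Tnfaip3. A further 7 passed in No Strain against TD and not in Strain against TD, namely Tlr9, Tlr12, Tlr13, Cd14, Irak2, Nod2 and Nfkb2. In the direct test of the patch groups none of these 7 passed. The other 20 passed in neither. Some of these calls lay close to the threshold: with each library left out in turn, Tlr6, Myd88 and Nfkbiz passed in 6 of 12 fits for Strain and Tnfaip3 in 3. For No Strain, Tlr12 and Gsdmd passed in 6, Irak2 in 5 and Nod2 in 4. Log2 fold changes of at least 1 with the call were found for 8 genes in Strain and 16 in No Strain. Among all 18618 genes tested, 860 and 1254 had a call with a change of at least that size, in either direction.

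Levels of different genes were compared per kilobase of annotated exon. In TD the order began with Nfkbia at 60.2 ± 8.53 CPM per kb (SD, n = 5), Cd14 at 31.2 ± 7.84, Clec4d at 27.0 ± 5.22, Rela at 25.2 ± 1.92 and Casp1 at 23.7 ± 3.15. From Cd14 to Casp1, each gene differed from the next in the order by less than 1 SD. The order ended with Nlrc4 at 1.04 ± 0.318, Tlr11 at 0.409 ± 0.129 and Tlr12 at 0.101 ± 0.0407 CPM per kb. Nfkbia was also first in both patch groups, at 119 ± 40.9 in Strain (SD, n = 4) and 148 ± 21.7 in No Strain (SD, n = 3). Clec4e stood in place 33 of 43 in TD, at 3.01 ± 1.01 CPM per kb, and in place 14 in both patch groups, at 17.3 ± 10.9 and 20.7 ± 9.30. Nlrp3 stood in place 39 in TD, 32 in Strain and 27 in No Strain, at 1.71 ± 0.384, 5.40 ± 2.34 and 6.91 ± 3.22 CPM per kb.

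**Figure D5:**
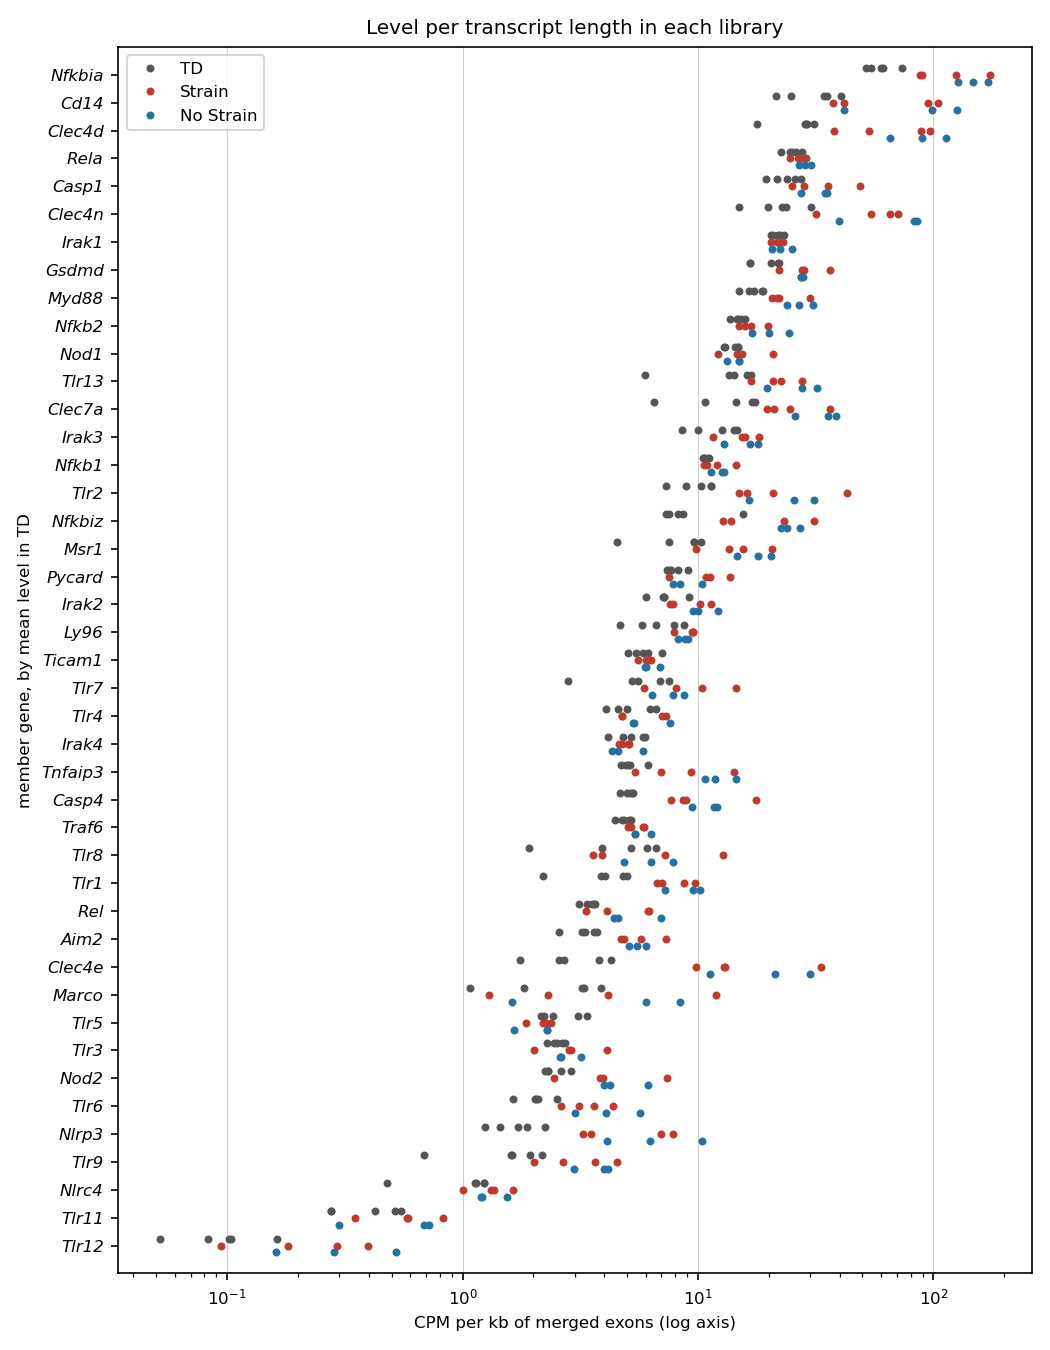
CPM per kb of exon (log axis) of each of the 43 genes, 1 point a library coloured by group, ordered by the TD mean. The TD means span from 0.101 CPM per kb for Tlr12 to 60.2 for Nfkbia.

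Genes that work with the members were counted from lists of the same pathways, also chosen with earlier results of these data known. By edgeR's test 6.20% of all genes tested were higher and 6.41% lower in Strain, and 9.35% and 8.40% in No Strain. Of 20 NF-kB target genes, 12 rose in Strain and 16 in No Strain, with 0 lower in either comparison by edgeR's test or at an unadjusted p under 0.05. The median log2 fold changes of the list were 1.53 and 2.34. Il1a, which encodes IL-1 alpha, was 3.78 ± 1.14 CPM in TD (SD, n = 5), 10.8 ± 2.76 in Strain (SD, n = 4) and 22.4 ± 3.71 in No Strain (SD, n = 3), with log2 fold changes of 1.51 and 2.56. Csf3, which encodes the granulocyte growth factor G-CSF, was 0.261 ± 0.256, 3.69 ± 1.72 and 12.1 ± 10.4 CPM, with 3.78 and 5.50. Il1b, the substrate of caspase-1, was 26.4 ± 8.71, 114 ± 64.1 and 209 ± 102 CPM, with 2.11 (adjusted p = 0.0153) and 2.98 (adjusted p = 0.00377). Il1b was chosen after its values were seen and stands in the inflammasome list as well. Cxcl5, Ccl2, Sele and Saa3 passed in neither comparison.

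Of 18 other core genes of the NF-kB pathway, 3 rose in Strain and 6 in No Strain, with median log2 fold changes of 0.09 and 0.19. These were 16.7% and 33.3% of the list, where 6.20% and 9.35% of all genes tested were higher. Bcl3, an IkB-like coactivator, had 0.53 (adjusted p = 0.0272) and 0.98 (adjusted p = 0.00273) by edgeR's test. Nfkbid, which encodes the nuclear inhibitor IkB-NS, had 0.76 and 0.95, both past the threshold. Of 20 further inflammasome and pyroptosis genes, 4 rose and 2 fell in Strain, and 9 rose and 0 fell in No Strain, where 4 were lower at an unadjusted p under 0.05. The medians of that list were 0.31 and 0.41. Calls in either direction made up 30% and 45% of it, against 12.6% and 17.8% of all genes tested. Mefv, which encodes the sensor pyrin, was 6.30 ± 0.959 CPM in TD (SD, n = 5), 26.6 ± 10.6 in Strain (SD, n = 4) and 33.6 ± 9.28 in No Strain (SD, n = 3), with log2 fold changes of 2.08 and 2.41. Nlrp12 had 1.14 (adjusted p = 0.0778) and 2.56 (adjusted p = 0.00371). The genes that fell in Strain were Gsdme, a gasdermin cleaved by caspase-3, at -0.40 (adjusted p = 0.0341), and Txnip, a thioredoxin-binding protein gene, at -0.31 (adjusted p = 0.042). In No Strain these were -0.30 and -0.28 and did not pass.

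The remaining lists were counted in the same way, with values given for Strain and No Strain. Calls in either direction made up 5.56% and 5.56% of toll-like receptor pathway genes, with median log2 fold changes of 0.12 and 0.22. For genes around the lectins and scavenger receptors, calls made up 21.1% and 31.6%, with medians of 0.03 and 0.17. For cytosolic nucleic acid sensing they made up 30% and 30%, with medians of 0.43 and 0.47. Over all genes tested, calls in either direction made up 12.6% and 17.8%. Of 18 further toll-like receptor pathway genes, 1 rose in Strain, Ly86, which encodes the RP105 partner MD-1 (log2 fold change 0.73, adjusted p = 0.0397). In No Strain 0 rose by edgeR's test and 1 fell, Lbp, the lipopolysaccharide-binding protein gene, at -1.71 (adjusted p = 0.0381), and 5 had an unadjusted p under 0.05. Of 19 genes around the C-type lectins and scavenger receptors, 3 rose in both comparisons, and 1 fell in Strain and 3 in No Strain. Fcer1g, which encodes the signalling chain that Mincle and Dectin-2 use, was 81.9 ± 15.5 CPM in TD (SD, n = 5), 148 ± 38.2 in Strain (SD, n = 4) and 175 ± 20.5 in No Strain (SD, n = 3), with log2 fold changes of 0.85 and 1.10. Bcl10, the adaptor between SYK signalling and NF-kB, had 0.32 and 0.46, both past the threshold. Scara5, a ferritin receptor gene of stromal cells, had -1.10 (adjusted p = 0.0602) and -1.76 (adjusted p = 0.014), and Cd36, a fatty acid transporter and scavenger receptor also abundant in adipocytes, had -0.87 (adjusted p = 0.0277) and -0.51 (adjusted p = 0.155). Markers of adipocytes fell as well by the same test, 6 of 8 in Strain and 8 of 8 in No Strain. Of 10 tested genes of cytosolic nucleic acid sensing, 2 rose and 1 fell in each comparison. Tbk1, the kinase that activates IRF3, had 0.28 and 0.36, both past the threshold. Zbp1, a sensor of Z-form nucleic acid, had 1.95 (adjusted p = 0.023) and 1.53 (adjusted p = 0.0519). Mavs, the mitochondrial adaptor of RNA sensing, had -0.25 and -0.29 and fell in both. Between the patch groups 0 genes of any of these lists passed edgeR's test, and 0 to 3 a list had an unadjusted p under 0.05. For Strain against No Strain, 19 of the 20 NF-kB target genes had a negative log2 fold change and 1 a positive one. Their median was -0.46.

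The library kit does not mark the strand of the RNA in its standard form, and the counting setting is not given in the sources used here. In the GENCODE annotation of GRCm38, 7 of the 43 genes share exon bases with a gene on the other strand: Tlr3, Myd88, Irak2, Irak3, Irak4, Pycard and Nfkb2. If the strand was not marked, reads from those bases cannot be assigned to either gene, and the values of these 7 carry that limit. The shared bases ran from 196 of 4412 for Irak2 to 830 of 4584 for Nfkb2. Irak1 shares exon bases with microRNA genes on its own strand.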

How the data were processed

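The files hold raw read counts per Ensembl gene, whole numbers that the authors deposited as 1 table a library. The submitters' processing notes name bcl2fastq 2.17, FastQC, cutadapt, STAR, featureCounts and DESeq2 and the build GRCm38. Their roles, settings and strand option, and the annotation release, are not given in the sources used here. Libraries came from oligo(dT)-selected RNA with RIN above 7.8, per the labels' protocols.

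Symbols came from GENCODE M21 on GRCm38, which gave one to 54165 of 54232 identifiers. Genes were filtered with filterByExpr (minimum count 10, minimum total 15), scaled by TMM and fitted over all 12 libraries with edgeR 4.0.16 (robust quasi-likelihood fit, R 4.3.3). The Benjamini-Hochberg adjustment covered 18618 genes, and calls needed an adjusted p under 0.05. CPM uses TMM-scaled totals, and the standard error is the log2 fold change divided by the root of the F statistic. The fit was also run on simulated counts with fewer changed genes than were called here against TD. No result above rests on that run. DESeq2 1.42.0, other scalings, filters, covariates and leaving out each library were alternatives.

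The members, pathway lists and marker lists were chosen with earlier results of these data known. Genes are named in full by rule: in each role the 2 smallest p-values against TD in each comparison, and over all roles the 2 smallest between the patch groups. Pathway lists give at most 2 genes past the threshold in each direction, by p. Marker lists were neutrophil, macrophage, dendritic cell, T cell, B cell, mast cell, keratinocyte, fibroblast, endothelial, adipocyte and skeletal muscle. By edgeR's test against TD, 3 of 7 T cell markers rose in Strain and 3 of 6 endothelial markers rose in each patch group. Of 7 dendritic cell markers 1 fell in No Strain, and none of the B cell, mast cell, keratinocyte or fibroblast markers passed in either comparison, where up to 3 a list had an unadjusted p under 0.05. Rigi matched no symbol, and Trex1 was listed at 0 and not tested. The 19 pairs of libraries within a group differed by more than counting noise (chi-square per degree of freedom 9.01 to 71.4). None was thus a repeat count of another, and each counted as 1 sample. That difference does not show that the libraries came from different mice.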

Additional observations from a re-analysis of the deposited data

Results flagged for a closer look

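In 86 sets of values (each of the 43 genes in TD and in Strain), 6 held a library whose gap to its nearest neighbour took up most of the group's range, and chance gives about 1 in 20, or 4.3. Clec4d in TD 1 was 28.55 CPM, where the next TD library had 45.5. Nlrc4 in TD 1 was 2.30 CPM, where the next had 5.41. Nfkbiz in TD 1 was 78.2 CPM, the highest of its group, where the next had 43.5. Ly96 in Strain 1 was 8.10 CPM, where the next Strain library had 9.63. Clec4e in Strain 2 was 165.92 CPM, where the next had 64.6. Casp4 in Strain 2 was 65.6 CPM, where the next had 33.1. Both Clec4d and Casp4 passed edgeR's test without the library concerned, and so did Clec4e. The No Strain group, with 3 libraries, was not screened.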

How the results depend on the processing

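The count of members past the threshold in Strain against TD was 16. It became 5 with the title letter as a covariate, 8 with the macrophage list's mean, 8 with a minimum log2 fold change of 1, and 0 with the neutrophil or the skeletal muscle list's mean (12 and 8 at an unadjusted p under 0.05 in edgeR). The count of 23 in No Strain against TD became 15 with the macrophage list's mean and 0 with the neutrophil or the muscle list's mean (13 and 21 at an unadjusted p under 0.05). With the neutrophil covariate 0 of all genes passed in either comparison, and with the muscle covariate 2 and 157, so these counts do not single out the members. In Strain against TD, 2349 of all genes passed in the main fit. That became 798 with the title letter, 1152 with the macrophage list's mean, 860 with a minimum log2 fold change of 1 and 882 without Strain 2. In No Strain against TD, 3305 became 1734 with the macrophage list's mean and 1505 without No Strain 3. Leaving out 1 library at a time gave 6 to 17 for Strain (6 without Strain 2, 8 without TD 3, 9 without TD 4) and 14 to 25 for No Strain (14 without No Strain 3). In those 12 fits, 6 members passed every time in Strain (Clec4d, Clec4e, Nlrp3, Aim2, Casp4 and Nfkbia) and 12 in No Strain. The other settings, DESeq2, 2 other scalings, 2 other filters, fits on 2 groups and no robust weights, gave 11 to 22 and 16 to 24. Calls among all genes in these settings ran from 1527 to 3518 and from 2381 to 4372. Strain against No Strain gave 0 members in every setting, including DESeq2, with 0 to 7 at an unadjusted p under 0.05, the 7 without Strain 2. No member past the threshold changed its sign against TD in any setting run. Why the counts moved, the cause, was not tested. No paired analysis was possible because the replicate numbers were given in accession order and the labels tie no libraries across groups. Depth limits Tlr12, whose TD levels lie close to the limit of 3 counts (0.117 to 0.149 CPM).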
